A study of Mus musculus with 10 samples.

Results

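The genes described here are 35 genes of the T cell receptor complex, of T cell lineage and activation, and of the checkpoint receptors that restrain T cells, taken as a list of symbols. All 35 were found among the 45706 genes of the count table and all 35 were among the 25146 genes tested, those with an average of 1 count or more over the 10 libraries. They were compared between uteri of 5 control *Arid1a* f/f mice, which carry the floxed *Arid1a* alleles without Cre, and 5 *Ltf* iCre/+ *Arid1a* f/f mice (Cre uteri), which carry the same floxed alleles and 1 copy of iCre at the lactoferrin locus, a driver active in the endometrial epithelium of adult females. The study cites reports that *Ltf* iCre is also active in neutrophils and further cells of the myeloid lineage, and deletion there was not tested here. *Arid1a* encodes a DNA-binding subunit of the SWI/SNF chromatin remodelling complex. All 10 mice were mated adult females on a mixed strain background, without further treatment, and the uteri were taken at GD 3.5, when the mouse uterus prepares for implantation. Each library came from 1 mouse, so the spread given is that between animals.

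T cells recognise antigen through a receptor of paired variable chains, alpha with beta or gamma with delta, which signals through the CD3 chains and the CD247 zeta chain. CD4 and CD8 mark the main classes of alpha-beta T cells, FOXP3 marks regulatory T cells, and CTLA4, PD-1 and related receptors hold activated cells in check. In the mouse uterus, gamma-delta T cells reside near the epithelium, and regulatory T cells are known for their part in tolerance of the embryo. Uterine NK cells and innate lymphoid cells share many of these genes, among them *Lck*, *Zap70*, *Cd247*, *Il2rb* and *Cd7*, and can carry transcripts of the delta constant gene without the receptor. In RNA of a whole uterus, more cells of a type and more RNA per cell cannot be told apart.

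The libraries held 59296537 to 72702411 counts on genes, and mitochondrial genes held 3.01% to 4.89% of them. *Arid1a* itself stood at 251, 210.4, 213, 192 and 197 CPM, the gene count after TMM scaling of all libraries to 1 size, in control uteri 1 to 5 and at 208, 191, 179, 182 and 165 CPM in Cre uteri 1 to 5. The groups overlapped, with means of 213 ± 22.9 CPM (SD, n = 5) and 185 ± 15.9 CPM (n = 5), in RNA of the whole uterus rather than of its epithelium. The log2 fold change of *Arid1a*, Cre over control, was -0.20 ± 0.094 (SE) and did not pass the test (adjusted p = 0.201). The T cell markers *Cd3e*, *Cd3d*, *Cd3g*, *Trac*, *Cd2* and *Cd5* were detected in all 10 libraries. The uterine genes *Hoxa11*, *Pgr* and *Esr1* were well expressed in all 10 libraries, the lowest value being 147 CPM for *Hoxa11* in Cre uterus 1.

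Differences are log2 fold changes of Cre over control uteri with their standard errors, and a gene is said to have risen or fallen only where the quasi-likelihood test of edgeR gave a p under 0.05 after Benjamini-Hochberg adjustment over all genes tested. By that test, 16 of the 35 genes rose in Cre uteri and none fell. Over all genes tested, 5.19% rose and 4.51% fell. The genes that rose were the 3 CD3 genes, *Cd247* and *Trdc* of the receptor complex, *Zap70* and *Lat* of its signalling, *Cd5* and *Icos*, the checkpoint receptors *Ctla4*, *Pdcd1* and *Havcr2*, the activation genes *Cd69* and *Crtam*, the cytokine receptor chain *Il7r* and the transcription factor *Bcl11b*. Their log2 fold changes lay between 1.08 for *Zap70* and 2.62 for *Pdcd1*. The other 19 did not pass, and they include *Cd4*, *Cd8a*, *Cd8b1*, *Trac* and *Foxp3*. Of all 35, 31 had a positive and 4 a negative log2 fold change, with a median of 1.08 against 0.026 over all genes tested. *Cd7* was the 1 gene lower at an unadjusted p under 0.05. The share of all genes at that unadjusted threshold was not computed. Counts at it, here and below, therefore have no background to be set against. A total of 15 genes had all 5 Cre values above all 5 control values, against 5.53% of all genes, and none had all 5 below, against 5.16%. Groups that do not overlap fix the exact permutation p at 0.00794, the smallest that 5 against 5 uteri allow. That p therefore adds nothing to the non-overlap of these 15. With DESeq2, which called 8.47% of all genes higher and 7.84% lower, 19 of the 35 were higher and 1 was lower, since *Cd4*, *Il2ra* and *Trac* were added as higher and *Cd7* as lower. When uteri were left out in turn, 10 to 17 of the 35 rose. Over all genes tested, these fits called 1204 to 2381 in either direction, against 2438 with all uteri. Both counts were lowest without control uterus 2, where *Cd247*, *Cd5*, *Crtam*, *Havcr2*, *Pdcd1* and *Zap70* did not pass. In all 10 such fits the same 10 genes rose, *Cd3e*, *Cd3d*, *Cd3g*, *Trdc*, *Lat*, *Icos*, *Ctla4*, *Cd69*, *Il7r* and *Bcl11b*.

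**Figure D1:**
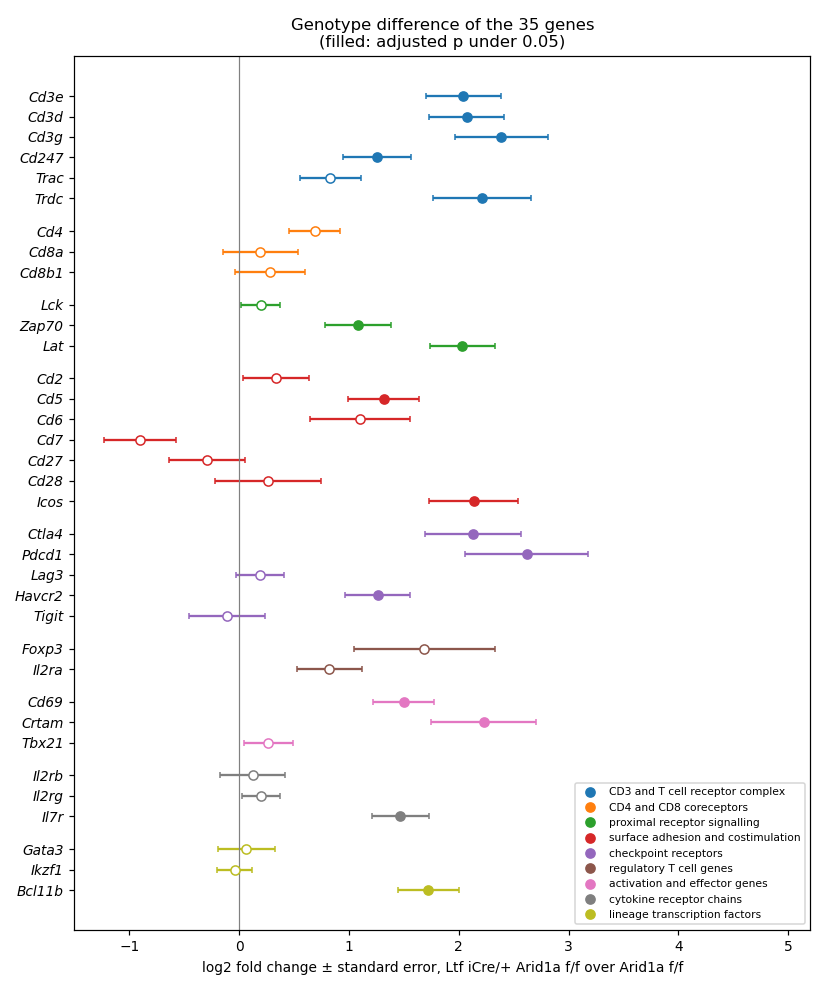
Log2 fold change of each of the 35 genes, *Ltf* iCre/+ *Arid1a* f/f over *Arid1a* f/f, with its standard error as a bar (5 uteri per genotype). Colours give the role of the gene, and filled points mark the 16 genes with an adjusted p under 0.05, all of them to the right of 0.

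The CD3 genes encode the signalling chains that carry every T cell receptor to the surface, and all 3 rose more than 4-fold. *Cd3e* (ENSMUSG00000032093, chr9:44998740-45009627, minus strand), the epsilon chain, stood at 2.78, 2.20, 1.65, 2.34 and 2.28 CPM in control uteri 1 to 5 and at 5.82, 3.97, 15.4, 12.3 and 8.88 CPM in Cre uteri 1 to 5. All Cre values were above all control values, and the highest were those of Cre uteri 3 and 4. The log2 fold change was 2.04 ± 0.34 (SE, adjusted p = 0.00512), a 4.12-fold difference. *Cd3d* (ENSMUSG00000032094, chr9:44981786-44987339, plus strand), the delta chain of CD3, stood at 1.34, 1.39, 0.862, 1.43 and 1.61 CPM in the controls and at 3.29, 2.50, 8.42, 7.44 and 6.29 CPM in the Cre uteri. Its groups did not overlap and Cre uteri 3 and 4 were again highest. *Cd3d* had a log2 fold change of 2.07 ± 0.34, adjusted p = 0.00503. *Cd3g* (ENSMUSG00000002033, chr9:44969572-44980431, minus strand), the gamma chain of CD3, stood at 4.10, 4.45, 2.66, 4.00 and 4.45 CPM in the controls and at 10.3, 9.31, 42.6, 28.7 and 12.1 CPM in the Cre uteri. Cre uterus 3 held the highest value and Cre uteri 1, 2 and 5 lay close together, all above the controls. *Cd3g* had a log2 fold change of 2.39 ± 0.42, adjusted p = 0.00676. The calls of *Cd3e*, *Cd3d* and *Cd3g* were kept in each of the 10 fits that left out 1 uterus.

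The 3 CD3 genes lie side by side on chromosome 9, and *Cd3d* and *Cd3g* are transcribed away from each other from start sites 1355 bases apart, with that of *Cd3e* 27825 bases from that of *Cd3d*. Because the members of this cluster rose together, the 250 bases before each start site (RefSeq, GRCm38.p6, written on the strand of the gene) are shown with 2 kinds of short motif in capitals, the E-box CACCTG or CAGGTG bound by E proteins and the ETS core AGGAAG or CTTCCT. The windows are chr9:44981536-44981785 (plus strand) for *Cd3d*, chr9:44980432-44980681 (minus strand) for *Cd3g* and chr9:45009612-45009861 (minus strand) for *Cd3e*.
Cd3d: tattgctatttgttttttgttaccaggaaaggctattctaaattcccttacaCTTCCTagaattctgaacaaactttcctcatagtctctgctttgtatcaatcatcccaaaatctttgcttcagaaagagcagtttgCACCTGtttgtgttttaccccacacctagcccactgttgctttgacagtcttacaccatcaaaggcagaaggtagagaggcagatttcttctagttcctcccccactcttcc
Cd3g: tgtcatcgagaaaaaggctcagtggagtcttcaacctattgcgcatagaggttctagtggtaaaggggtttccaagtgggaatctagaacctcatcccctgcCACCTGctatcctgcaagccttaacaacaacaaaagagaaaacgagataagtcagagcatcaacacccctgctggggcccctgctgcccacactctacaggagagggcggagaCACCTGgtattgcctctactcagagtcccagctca
Cd3e: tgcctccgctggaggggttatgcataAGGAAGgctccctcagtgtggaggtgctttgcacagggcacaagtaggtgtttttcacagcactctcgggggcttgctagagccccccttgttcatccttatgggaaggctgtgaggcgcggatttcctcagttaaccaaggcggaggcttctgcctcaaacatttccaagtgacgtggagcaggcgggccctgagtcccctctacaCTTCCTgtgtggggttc
The first bases of the E-box matches lie at -112 in *Cd3d* and at -148 and -35 in *Cd3g*, and *Cd3e* has none in this window. ETS matches begin at -198 in *Cd3d* and at -224 and -17 in *Cd3e*, and *Cd3g* has none. A window was found for 22 of the 35 genes, 12 of them among those that rose. The E-box was in 8 of the 22, of which 6 rose, and in 17.2% of the 32851 windows of all genes. The ETS core was in 16 of the 22, of which 10 rose, and in 29.5% of all windows. Both strands were searched for 3 more motifs. AGATAA, which factors such as GATA3 bind, was in 3 of the 22, of which 1 rose, and in 9.99% of all windows. The RUNX motif TGTGGT was in 5 of the 22, of which 2 rose, and in 14.0% of all windows. The sequence AGGTCA, which several nuclear receptors bind, was in 4 of the 22, of which 3 rose, and also in 14.0%. None of these 5 motifs contains another. A match is a match of letters only, and no binding was measured.

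Of the zeta chain and the 2 constant genes among the 35, *Cd247* and *Trdc* rose and *Trac* did not pass. *Cd247* (ENSMUSG00000005763, chr1:165788681-165877277, plus strand), the zeta chain used by T cell receptors and by Fc receptors of NK cells, stood at 2.11, 2.59, 1.35, 2.41 and 2.58 CPM in the controls and at 3.12, 3.23, 8.11, 7.38 and 4.57 CPM in the Cre uteri. The groups did not overlap, and Cre uteri 3 and 4 were highest. *Cd247* had a log2 fold change of 1.26 ± 0.31, adjusted p = 0.0286, and did not pass when any 1 of control uteri 1 to 5 or Cre uteri 3 and 4 was left out (adjusted p between 0.0531 and 0.0719). *Cd247* shares 3007 exon bases with *Pou2f1* on the opposite strand, and how the counting treated strand is not given in the sources used here. *Trdc* (ENSMUSG00000104876, chr14:54142851-54148868, plus strand), the delta constant gene, stood at 6.69, 8.20, 4.07, 6.82 and 6.40 CPM in the controls and at 12.8, 11.5, 62.8, 41.5 and 20.8 CPM in the Cre uteri. Cre uteri 3 and 4 stood far above every other uterus, and the lowest Cre uterus was still above every control. *Trdc* had a log2 fold change of 2.21 ± 0.45, adjusted p = 0.0119, in all 10 fits without 1 uterus past the threshold. *Trac* (ENSMUSG00000076928, chr14:54220521-54224206, plus strand), the alpha constant gene, stood at 1.71, 1.63, 1.80, 1.93 and 1.72 CPM in the controls and at 3.01, 1.77, 1.99, 3.76 and 5.11 CPM in the Cre uteri. Its values were highest in Cre uteri 5, 4 and 1, while Cre uteri 2 and 3 lay within or just above the range of the controls. *Trac* had a log2 fold change of 0.83 ± 0.28, adjusted p = 0.0836, which did not pass, and passed without Cre uterus 2 (adjusted p = 0.0403).

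The remaining constant genes give the other chains. Of 5 listed, 4 rose and none fell (none fell at an unadjusted p under 0.05 or with DESeq2 either). *Tcrg-C1* and *Tcrg-C2*, gamma constant genes, rose by a log2 fold change of 2.76 ± 0.49, adjusted p = 0.00682 and by 2.58 ± 0.50, adjusted p = 0.0107, and kept their calls in all 10 fits without 1 uterus. *Tcrg-C1* stood at 2.18, 2.02, 0.799, 2.36 and 1.74 CPM in the controls and at 5.27, 4.88, 25.9, 16.4 and 9.17 CPM in the Cre uteri, with Cre uteri 3 and 4 highest as for *Trdc*. *Tcrg-C4* had a log2 fold change of 1.95 ± 0.54, adjusted p = 0.0449, and did not pass when any 1 of control uteri 1 to 5 or Cre uteri 3 and 4 was left out (adjusted p between 0.0792 and 0.108). *Trbc2*, a beta constant gene, had a log2 fold change of 1.52 ± 0.34, adjusted p = 0.0197, and did not pass when either of control uteri 3 and 4 was left out (adjusted p between 0.0532 and 0.0583). The fifth, *Trbc1*, named after its values were seen, had a log2 fold change of 0.79 ± 0.34, adjusted p = 0.166. The 2 beta constant genes are near copies of each other, as are gamma constant genes, so their split is uncertain. Reads over a junction of a variable and a constant gene touch more than 1 gene and are left out by the counting mode used, which lowers the counts of all these chains.

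**Figure D2:**
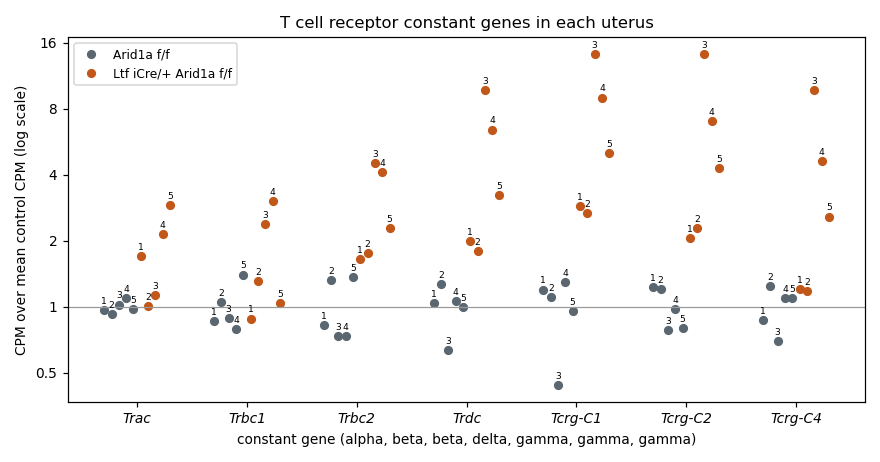
T cell receptor constant genes in each uterus, as CPM over the mean CPM of the 5 controls on a log scale, with the replicate number beside each point. The delta and gamma genes of Cre uteri 3 and 4 lie farthest above 1, and the alpha gene *Trac* of Cre uteri 2 and 3 lies near 1.

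Ratios of 2 genes within a library do not depend on its scaling, and 6 were compared. The count ratio of *Trdc* to *Trac* was 3.91, 5.01, 2.26, 3.52 and 3.71 in control uteri 1 to 5 and 4.25, 6.48, 31.4, 11.0 and 4.08 in Cre uteri 1 to 5. Cre uterus 3 stood far above the rest, and Cre uteri 1 and 5 lay within the range of the controls. The difference of 1.21 on the log2 scale, exact permutation p = 0.0476, adjusted p = 0.0952 over the 6 ratios, did not pass the adjusted threshold. Without Cre uterus 3 it was 0.73, and without Cre uteri 3 and 4 together, an omission chosen after the values were seen, it was 0.44. These counts are not per length and do not give the ratio of cells.

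The coreceptors that divide alpha-beta T cells into helper and cytotoxic classes did not pass the test, while 1 of the 3, *Cd4*, was higher at an unadjusted p under 0.05 and with DESeq2. *Cd4*, found on helper and regulatory T cells and weakly on some myeloid cells, stood at 1.96, 2.30, 2.62, 2.78 and 3.19 CPM in the controls and at 4.16, 2.97, 2.88, 5.00 and 5.70 CPM in the Cre uteri. Cre uteri 1, 4 and 5 were above all controls and Cre uteri 2 and 3 were not. *Cd4* had a log2 fold change of 0.69 ± 0.23, adjusted p = 0.0855, which did not pass. *Cd8a*, the alpha chain of CD8, stood at 1.29, 1.80, 3.10, 1.60 and 2.73 CPM in the controls and at 2.62, 2.94, 0.965, 3.33 and 2.17 CPM in the Cre uteri. The groups overlapped, and Cre uterus 3, highest for the CD3 genes, held the lowest value of all 10. *Cd8a* had a log2 fold change of 0.19 ± 0.34, adjusted p = 0.777, and *Cd8b1*, its partner chain, one of 0.28 ± 0.32, adjusted p = 0.642.

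Set against *Cd3e* of the same library, both coreceptors were compared as ratios. The count ratio of *Cd4* to *Cd3e* ranged from 0.704 to 1.59 in controls and from 0.187 to 0.749 in Cre uteri. The difference was -1.24 on the log2 scale, exact permutation p = 0.0238, adjusted p = 0.0952 over the 6 ratios. The count ratio of *Cd8b1* to *Cd3e* ranged from 0.183 to 0.981 in controls and from 0.0472 to 0.321 in Cre uteri. That difference was -1.58 on the log2 scale, exact permutation p = 0.0317, adjusted p = 0.0952 over the 6 ratios. Both ratios were lower on average in Cre uteri, and neither passed after adjustment, although both did without control uterus 1 (adjusted p = 0.0476 for each).

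**Figure D3:**
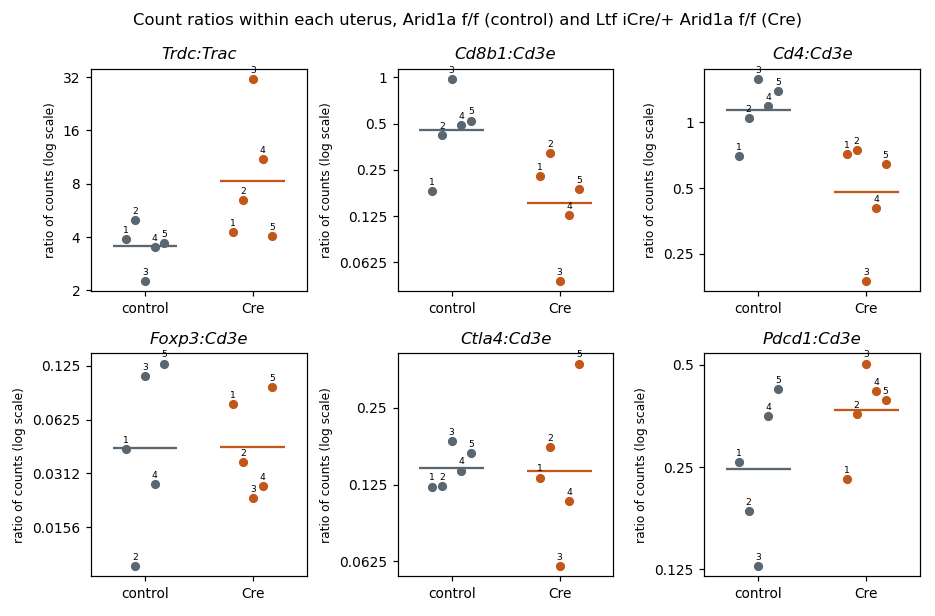
The 6 count ratios within each uterus on log scales, for *Arid1a* f/f (control) and *Ltf* iCre/+ *Arid1a* f/f (Cre) uteri, with the mean of the log2 values as a line and the replicate number beside each point. Cre uterus 3 held the highest *Trdc*:*Trac* ratio and the lowest *Cd4*:*Cd3e* and *Cd8b1*:*Cd3e* ratios.

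Of the 3 members that carry the signal from the receptor, 2 rose. *Lck*, the kinase that phosphorylates the CD3 chains, had a log2 fold change of 0.20 ± 0.18, adjusted p = 0.539. *Zap70* (ENSMUSG00000026117, chr1:36761798-36782818, plus strand), the kinase that binds the phosphorylated chains, stood at 3.96, 3.92, 2.63, 2.95 and 3.14 CPM in the controls and at 3.95, 4.46, 10.3, 11.0 and 5.47 CPM in the Cre uteri. Cre uteri 3 and 4 were far above the rest, and Cre uterus 1 lay within the range of the controls. *Zap70* had a log2 fold change of 1.08 ± 0.30, adjusted p = 0.0450, and did not pass when any 1 of control uteri 1 to 5 or Cre uteri 3 and 4 was left out (adjusted p between 0.0664 and 0.111). *Lat* (ENSMUSG00000030742, chr7:126363824-126369570, minus strand), the membrane adaptor phosphorylated by ZAP70, stood at 1.69, 2.05, 1.61, 2.36 and 1.59 CPM in the controls and at 5.28, 4.31, 10.5, 11.9 and 6.09 CPM in the Cre uteri. The groups did not overlap, and Cre uteri 3 and 4 were highest. *Lat* had a log2 fold change of 2.03 ± 0.29, adjusted p = 0.00273, and had the smallest adjusted p of the 35 genes.

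Further along the pathway, 6 of 22 listed signalling genes rose and none fell. At an unadjusted p under 0.05, 1 of them was lower, and with DESeq2 none. The 4 of smallest p were *Ptpn22*, a phosphatase that limits receptor signalling (log2 fold change 1.17 ± 0.22, adjusted p = 0.00931), and the adaptors *Lcp2* (log2 fold change 0.70 ± 0.17, adjusted p = 0.0278), *Grap2* (log2 fold change 0.97 ± 0.24, adjusted p = 0.0294) and *Fyb* (log2 fold change 0.66 ± 0.17, adjusted p = 0.0364). *Ptpn22* stood at 21.9, 26.2, 13.2, 26.4 and 32.0 CPM in the controls and at 41.4, 46.4, 47.5, 66.5 and 67.2 CPM in the Cre uteri, and its call was kept in all 10 fits without 1 uterus. *Lcp2* did not pass when any 1 of control uteri 1 to 4 or Cre uterus 4 was left out (adjusted p between 0.0608 and 0.0687). *Grap2* did not pass when any 1 of control uteri 1 to 5 or Cre uteri 3 and 4 was left out (adjusted p between 0.0506 and 0.0818). *Fyb* did not pass when any 1 of control uteri 1 to 5 or Cre uteri 4 and 5 was left out (adjusted p between 0.0574 and 0.0889). The median log2 fold change of the 22 genes was 0.57. Mean control levels were 23.9 CPM for *Ptpn22*, 11.8 for *Lcp2* and 29.2 for *Fyb*, against 2.36 for *Grap2* and 2.25 for *Cd3e*. *Ptpn22* and *Lcp2* were highest in Cre uterus 5, *Fyb* in Cre uterus 4 and *Grap2*, like *Cd3e*, in Cre uterus 3. Which cells hold these transcripts was not tested.

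Among the 7 surface genes of adhesion and costimulation, 2 rose. *Icos* (ENSMUSG00000026009, chr1:60977927-61000320, plus strand), a costimulatory receptor of activated T cells, stood at 1.68, 1.67, 1.10, 1.56 and 1.56 CPM in the controls and at 3.76, 1.99, 11.6, 7.86 and 8.16 CPM in the Cre uteri. Cre uterus 2 lay just above the controls and Cre uteri 3, 4 and 5 well above them. *Icos* had a log2 fold change of 2.14 ± 0.40, adjusted p = 0.00920. *Cd5* (ENSMUSG00000024669, chr19:10717116-10739002, minus strand), a receptor that dampens antigen receptor signals, stood at 0.769, 0.572, 0.611, 0.426 and 0.560 CPM in the controls and at 1.66, 0.794, 0.801, 2.06 and 2.00 CPM in the Cre uteri. The lowest Cre value lay just above the highest control. *Cd5* had a log2 fold change of 1.32 ± 0.33, adjusted p = 0.0289, and did not pass when any 1 of control uteri 2 to 5 or Cre uteri 1, 4 and 5 was left out (adjusted p between 0.0501 and 0.0729). The related scavenger receptor *Cd6* had a log2 fold change of 1.10 ± 0.45, adjusted p = 0.150. *Cd2*, an adhesion receptor of T and NK cells, had a log2 fold change of 0.34 ± 0.30, adjusted p = 0.530, *Cd27*, a TNF receptor family member, one of -0.29 ± 0.35, adjusted p = 0.657, and *Cd28*, the main costimulatory receptor, one of 0.26 ± 0.48, adjusted p = 0.785. *Cd28* varied widely in both groups, from 3.27 to 8.99 CPM in control uteri 1 and 5 and from 1.98 to 13.6 CPM in Cre uteri 2 and 5. *Cd7*, found on T and NK cells, ran from 2.22 to 6.04 CPM in controls and from 1.36 to 2.90 CPM in Cre uteri. *Cd7* had a log2 fold change of -0.90 ± 0.33, adjusted p = 0.105, the most negative of the 35, and shares 122 exon bases with an antisense gene.

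Of the 5 checkpoint receptors, 3 rose. *Pdcd1* (ENSMUSG00000026285, chr1:94038305-94052553, minus strand), which encodes PD-1, stood at 0.713, 0.404, 0.204, 0.824 and 0.962 CPM in the controls and at 1.33, 1.42, 7.77, 5.16 and 3.50 CPM in the Cre uteri. Cre uteri 3, 4 and 5 were highest, and Cre uteri 1 and 2 lay above every control by a smaller margin. *Pdcd1* had a log2 fold change of 2.62 ± 0.56, adjusted p = 0.0158, the largest log2 fold change of the 35, and did not pass without control uterus 2 (adjusted p = 0.0502). *Ctla4* (ENSMUSG00000026011, chr1:60887000-60915832, plus strand), which competes with CD28 for its ligands, stood at 0.336, 0.265, 0.298, 0.327 and 0.373 CPM in the controls and at 0.768, 0.693, 0.916, 1.32 and 3.31 CPM in the Cre uteri. The controls were nearly alike, from 19 to 26 counts, and Cre uterus 5 stood above the other 4. *Ctla4* had a log2 fold change of 2.13 ± 0.44, adjusted p = 0.0130. *Havcr2* (ENSMUSG00000020399, chr11:46454935-46481255, plus strand), which encodes TIM-3, a receptor of T cells and of myeloid cells, stood at 1.96, 1.80, 1.39, 1.39 and 2.48 CPM in the controls and at 2.87, 2.62, 3.78, 5.64 and 6.77 CPM in the Cre uteri. The groups did not overlap, and Cre uteri 5 and 4 were highest. *Havcr2* had a log2 fold change of 1.26 ± 0.30, adjusted p = 0.0234, and did not pass when any 1 of control uteri 2 to 4 or Cre uterus 4 was left out (adjusted p between 0.0513 and 0.0666). *Lag3*, which binds MHC class II, had a log2 fold change of 0.19 ± 0.22, adjusted p = 0.642, and *Tigit*, a receptor for nectin-like ligands on T and NK cells, one of -0.11 ± 0.35, adjusted p = 0.882.

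Relative to *Cd3e*, neither checkpoint gene changed past the threshold. The count ratio of *Ctla4* to *Cd3e* ranged from 0.123 to 0.185 in controls and from 0.0599 to 0.373 in Cre uteri, a difference of -0.044 on the log2 scale, exact permutation p = 0.905, adjusted p = 1.00 over the 6 ratios. The count ratio of *Pdcd1* to *Cd3e* ranged from 0.128 to 0.423 in controls and from 0.230 to 0.504 in Cre uteri, a difference of 0.58 on the log2 scale, exact permutation p = 0.159, adjusted p = 0.238 over the 6 ratios. Of 11 listed ligands of costimulatory and checkpoint receptors, 2 rose and none fell, and none was lower at an unadjusted p under 0.05 or with DESeq2. *Pdcd1lg2*, which encodes the PD-1 ligand PD-L2, stood at 0.154, 0.153, 0.204, 0.199 and 0.144 CPM in the controls and at 0.314, 0.693, 0.409, 0.566 and 0.926 CPM in the Cre uteri. It was low throughout, and every Cre value was above every control. *Pdcd1lg2* had a log2 fold change of 1.76 ± 0.33, adjusted p = 0.00956, and *Cd48*, a ligand of CD2 in the mouse, one of 0.88 ± 0.24, adjusted p = 0.0431. *Cd48* did not pass when any 1 of control uteri 1 to 4 or Cre uteri 3 to 5 was left out (adjusted p between 0.0704 and 0.104).

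Neither of the 2 regulatory T cell genes passed the test, while both were higher at an unadjusted p under 0.05 and 1, *Il2ra*, with DESeq2. *Foxp3*, the lineage factor of regulatory T cells, stood at 0.112, 0.0139, 0.172, 0.0568 and 0.287 CPM in the controls and at 0.439, 0.135, 0.343, 0.320 and 0.839 CPM in the Cre uteri. These controls hold only 1 to 20 counts, and 4 of 5 Cre uteri were above all of them. *Foxp3* had a log2 fold change of 1.69 ± 0.64, adjusted p = 0.121, which did not pass, while the exact permutation test of this gene alone gave p = 0.0397 without adjustment. *Foxp3* shares exon bases with *Flicr* and 3 other genes, which can remove reads from its count. The count ratio of *Foxp3* to *Cd3e* ranged from 0.00946 to 0.129 in controls and from 0.0228 to 0.0952 in Cre uteri, a difference of 0.0098 on the log2 scale, exact permutation p = 1.00, adjusted p = 1.00 over the 6 ratios. *Il2ra*, the alpha chain of the IL-2 receptor, found on regulatory and activated T cells and on innate lymphoid cells (ILCs), had a log2 fold change of 0.82 ± 0.29, adjusted p = 0.102, and passed without Cre uterus 1 (adjusted p = 0.0453).

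Both activation genes rose, and the effector factor did not. *Cd69* (ENSMUSG00000030156, chr6:129267325-129275436, minus strand), an early activation antigen that also marks resident lymphocytes, stood at 1.43, 0.878, 1.50, 1.29 and 1.71 CPM in the controls and at 2.09, 3.08, 5.41, 4.53 and 4.17 CPM in the Cre uteri. The lowest Cre uterus was above the highest control. *Cd69* had a log2 fold change of 1.50 ± 0.28, adjusted p = 0.00861. *Crtam* (ENSMUSG00000032021, chr9:40969691-41004628, minus strand), a surface molecule of activated T and NK cells, stood at 3.23, 0.864, 0.674, 0.696 and 0.517 CPM in the controls and at 6.40, 4.90, 4.35, 5.10 and 7.29 CPM in the Cre uteri. Control uterus 1 stood above the other 4 controls but below every Cre uterus. *Crtam* had a log2 fold change of 2.23 ± 0.48, adjusted p = 0.0163, and did not pass without control uterus 2 (adjusted p = 0.0517). *Tbx21*, the T-bet factor of type 1 T cells and NK cells, had a log2 fold change of 0.27 ± 0.23, adjusted p = 0.509.

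Among cytokine receptor chains, *Il7r* alone passed. *Il7r* (ENSMUSG00000003882, chr15:9505788-9530176, minus strand), which supports survival of T cells and ILCs, stood at 3.17, 2.29, 2.46, 3.10 and 2.86 CPM in the controls and at 7.28, 3.48, 8.65, 8.18 and 10.9 CPM in the Cre uteri. Cre uterus 2 lay just above the controls and the other 4 well above them. *Il7r* had a log2 fold change of 1.47 ± 0.26, adjusted p = 0.00723. *Il2rb*, the chain shared by the IL-2 and IL-15 receptors and high on NK cells, had a log2 fold change of 0.12 ± 0.30, adjusted p = 0.838, and the common gamma chain *Il2rg* one of 0.20 ± 0.17, adjusted p = 0.519. *Il2rg* shares 728 exon bases with *Gm20489* on the same strand, which can remove reads from its count. *Il2rb* ran from 8.75 CPM in Cre uterus 1 to 33.1 CPM in Cre uterus 4, a range wider than that of the controls on both sides.

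Of the 3 lineage transcription factors, *Bcl11b* rose. *Bcl11b* (ENSMUSG00000048251, chr12:107910403-108003602, minus strand), which commits precursors to the T cell lineage and is also used by type 2 ILCs, stood at 1.85, 1.69, 1.44, 1.96 and 1.45 CPM in the controls and at 4.56, 3.16, 8.29, 7.65 and 4.05 CPM in the Cre uteri. The groups did not overlap, and Cre uteri 3 and 4 were highest. *Bcl11b* had a log2 fold change of 1.72 ± 0.28, adjusted p = 0.00455. *Gata3*, a factor of T cells and type 2 ILCs, had a log2 fold change of 0.066 ± 0.26, adjusted p = 0.908, and *Ikzf1*, found across lymphocytes and myeloid cells, one of -0.041 ± 0.16, adjusted p = 0.906. Of 12 other listed T cell transcription factors, 3 rose and 1 fell. Of the 12, 4 had a positive and 8 a negative log2 fold change, with a median of -0.14. At an unadjusted p under 0.05, 3 were higher and 3 lower, and with DESeq2 3 were higher and 2 lower. *Ikzf3*, which encodes Aiolos, had a log2 fold change of 1.61 ± 0.26, adjusted p = 0.00501. Its values were 17.6, 13.1, 13.6, 14.6 and 18.6 CPM in the controls and 69.5, 25.5, 36.7, 36.0 and 68.1 CPM in the Cre uteri. Cre uteri 1 and 5 were thus highest, and not Cre uteri 3 and 4 as for *Cd3e*. *Runx3*, a factor of cytotoxic and innate-like lymphocytes, rose by a log2 fold change of 0.80 ± 0.18, adjusted p = 0.0199, and *Ets1*, expressed well beyond lymphocytes, fell (log2 fold change -0.33 ± 0.076, adjusted p = 0.0205). *Runx3* did not pass when any 1 of control uteri 3 to 5 was left out (adjusted p between 0.0505 and 0.0616). *Ets1* did not pass when either of control uteri 3 and 4 was left out (adjusted p between 0.0573 and 0.0577).

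**Figure D4:**
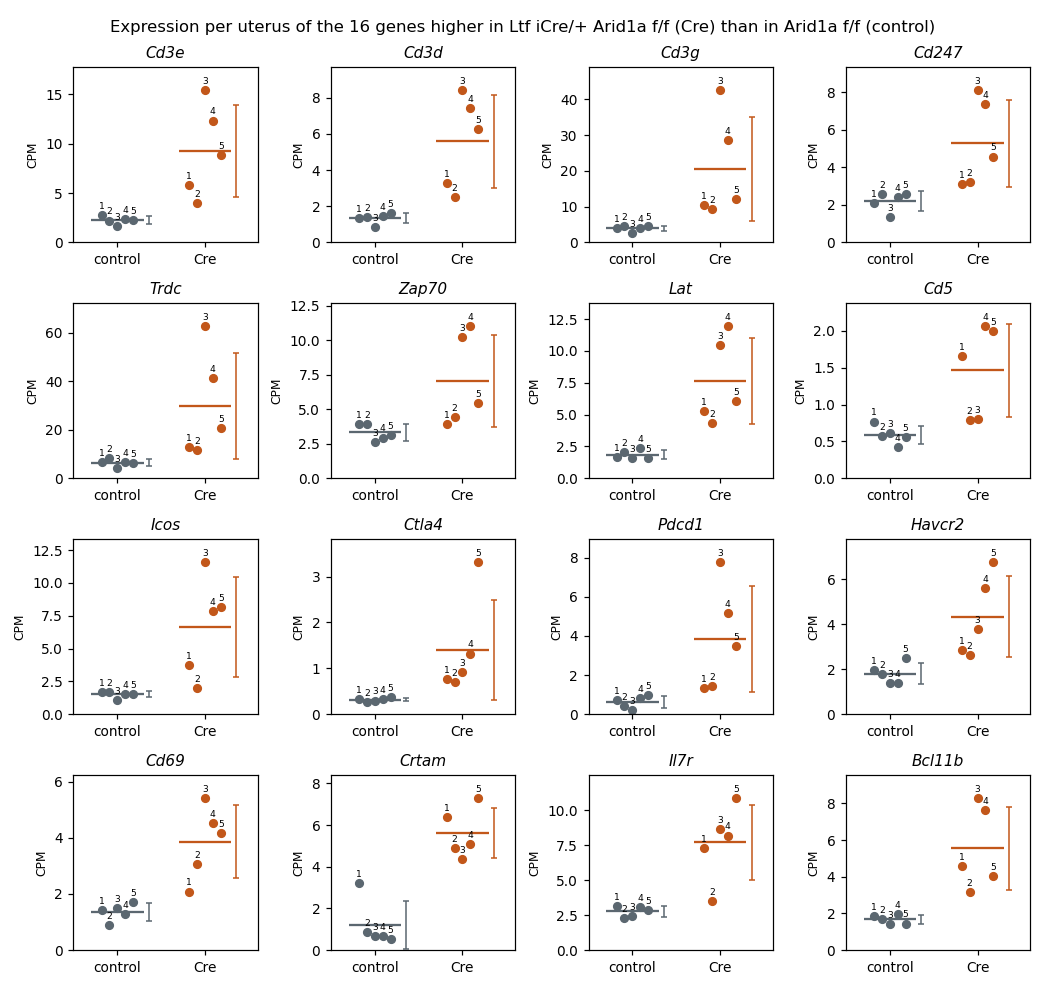
CPM of the 16 genes that rose, in each of 5 *Arid1a* f/f (control) and 5 *Ltf* iCre/+ *Arid1a* f/f (Cre) uteri, with the mean as a line, the SD as the bar beside it and the replicate number above each point. All but *Zap70* have every Cre point above every control point, and Cre uteri 3, 4 or 5 hold the highest value in each panel.

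Levels of different genes were compared per length of exon. In controls the highest mean levels per kb were those of *Ikzf1* (4.72 CPM per kb), *Lck* (4.53), *Il2rb* (4.22) and *Cd7* (3.22), genes that NK cells also express. *Trdc* stood at 1.66 and *Cd3g* at 1.20 CPM per kb there. In Cre uteri *Trdc* (7.73 CPM per kb) and *Cd3g* (6.31) had the highest means, before *Lck* (5.19), *Il2rb* (4.60) and *Ikzf1* (4.59). *Trdc* stood at 3.32, 2.99, 16.2, 10.7 and 5.39 CPM per kb in Cre uteri 1 to 5, *Cd3g* at 3.16, 2.85, 13.0, 8.78 and 3.71 and *Lck* at 4.66, 5.05, 4.55, 7.72 and 3.99. In Cre uteri 1 and 2 both *Trdc* and *Cd3g* were below *Lck*, and *Cd3g* was below it in Cre uterus 5 as well. Without Cre uterus 3 the means were 5.61 CPM per kb for *Trdc*, 5.36 for *Lck* and 4.63 for *Cd3g*, so the order of these neighbours did not hold beyond the spread between uteri. *Foxp3* was lowest in both genotypes, at 0.0281 and 0.0907 CPM per kb.

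The Cre uteri differed from one another in which genes stood highest. Cre uterus 3 held the highest of the 10 values for 10 of the 35 genes, Cre uterus 4 for 10 and Cre uterus 5 for 13. The other 2 genes were *Cd7*, highest in control uterus 2, and *Cd27*, highest in control uterus 5. Among the 16 genes that rose, Cre uterus 3 was highest for 9, among them the CD3 genes, *Cd247*, *Trdc*, *Pdcd1* and *Icos*. Cre uterus 5 was highest for *Ctla4*, *Havcr2*, *Crtam* and *Il7r*, and Cre uterus 4 for *Zap70*, *Lat* and *Cd5*. *Foxp3*, *Cd4*, *Trac*, *Cd6* and *Cd28*, which did not pass, were also highest in Cre uterus 5. The sum over the 6 receptor complex genes was 12.4 to 20.5 CPM in controls and 32.3 to 139 CPM in Cre uteri, and that over the 3 coreceptors was 3.75 to 7.33 and 4.56 to 9.89 CPM. Without Cre uteri 3 and 4 together, a comparison added after the values were seen, 12 of the 35 genes rose, and *Cd247*, *Havcr2*, *Pdcd1* and *Zap70* did not pass. Over all genes tested, that fit called 2678 in either direction, against 2438 with all uteri. Without Cre uteri 1 and 5 together, 15 of the 35 rose and 2358 of all genes were called.

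**Figure D5:**
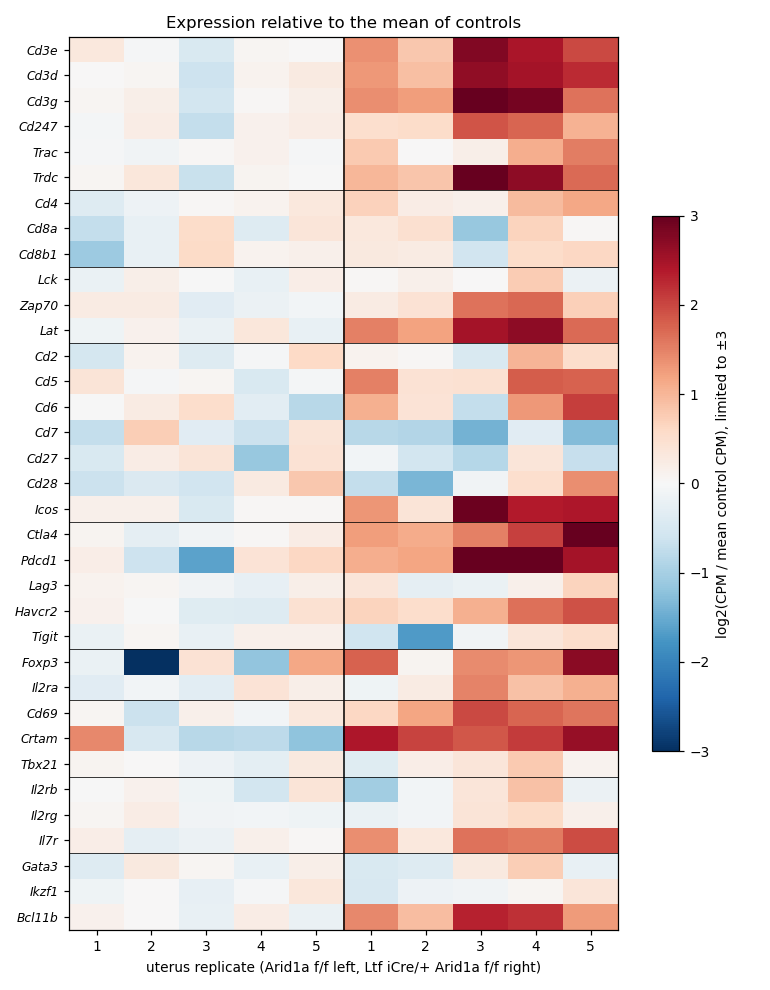
Log2 of CPM over the mean control CPM for the 35 genes (rows, grouped by role) in the 10 uteri (columns, the 5 controls first and then the 5 *Ltf* iCre/+ *Arid1a* f/f mice), with the colours limited to ±3. Most receptor complex rows are darkest red in Cre uteri 3 and 4, and the *Ctla4* and *Foxp3* rows in Cre uterus 5.

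Markers of other cells were measured in the same libraries, and their part in these differences was not tested. Counts of markers at an unadjusted p under 0.05 are given without a share over all genes, which was not computed. By edgeR none of 10 NK cell markers passed the test in either direction, and 2 were higher and none lower at an unadjusted p under 0.05, while DESeq2 called 1 higher and none lower. Their sum ran from 71.1 to 134 CPM in controls and from 50.4 to 159 CPM in Cre uteri, and *Cd244a* had the smallest p (log2 fold change 0.69 ± 0.21, adjusted p = 0.0613). Of 9 innate lymphoid cell markers 3 rose and 2 fell, with sums of 267 to 391 and 78.7 to 203 CPM. *Il23r*, the IL-23 receptor, rose (log2 fold change 1.77 ± 0.35, adjusted p = 0.0115). *Areg* fell (log2 fold change -4.49 ± 0.54, adjusted p = 0.00131), and *Il17rb* also fell (log2 fold change -2.38 ± 0.57, adjusted p = 0.0256), while the cytokine gene *Il13* was at 0 in 8 of the 10 libraries. *Il17rb* did not pass when either of control uteri 2 and 4 was left out (adjusted p between 0.0522 and 0.0615). *Areg* is also expressed by uterine epithelium, and *Il17rb* made up most of the sum of this list in controls.

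Of 10 macrophage markers none passed, though 4 were higher and 1 lower at an unadjusted p under 0.05 and 2 were higher and 1 lower with DESeq2. Their sum ran from 239.6 to 389 CPM in controls and from 323 to 857 CPM in Cre uteri. *Cd68* had the smallest p (log2 fold change 1.03 ± 0.33, adjusted p = 0.0736), and Cre uterus 5, highest for *Havcr2*, was also highest for *Cd68*, at 61.4 CPM. Of 8 B cell markers only *Blk* rose (log2 fold change 2.41 ± 0.48, adjusted p = 0.0113), a kinase that gamma-delta T cells also use. At an unadjusted p under 0.05, 2 of the 8 were higher and none lower, and with DESeq2 also 2 and none. *Blk* stood at 2.28, 2.04, 0.470, 2.17 and 1.74 CPM in the controls and at 4.63, 4.17, 16.1, 13.4 and 8.17 CPM in the Cre uteri, with Cre uteri 3 and 4 highest. The B cell sum ran from 9.20 to 17.2 CPM in controls and from 8.82 to 39.7 CPM in Cre uteri. Of 8 dendritic cell markers none rose (2 were higher at an unadjusted p under 0.05 and 1 with DESeq2) and *Zbtb46* fell (log2 fold change -0.60 ± 0.12, adjusted p = 0.0109), with sums of 57.9 to 70.2 and 63.5 to 112 CPM. Of 8 epithelial markers 6 rose and none fell (nor was any lower at an unadjusted p under 0.05 or with DESeq2), with sums of 801 to 1072 CPM in controls and 1157 to 2457 CPM in Cre uteri. The 4 of smallest p were *Cdh1* (log2 fold change 0.82 ± 0.16, adjusted p = 0.0106), *Cldn7* (log2 fold change 1.10 ± 0.25, adjusted p = 0.0184), *Krt8* (log2 fold change 0.87 ± 0.20, adjusted p = 0.0220) and *Krt19* (log2 fold change 0.77 ± 0.19, adjusted p = 0.0289). The epithelial sum was highest in Cre uterus 1, and its relation to the CD3 genes was not tested. *Cldn7* did not pass without control uterus 3 (adjusted p = 0.0546). *Krt8* did not pass when any 1 of control uteri 2, 3 and 5 was left out (adjusted p between 0.0544 and 0.0618). *Krt19* did not pass when any 1 of control uteri 1, 2, 3 and 5 was left out (adjusted p between 0.0516 and 0.0737). No marker listed was at 0 in all libraries.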

How the data were processed

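Uterine RNA of 10 mice was measured by mRNA sequencing (KAPA mRNA Hyperprep, 50 bp paired end). Trimming by the authors used cutadapt 1.18 and Trim Galore 0.6.4, with FastQC 0.11.9 for quality. STAR 2.7.3a served for alignment to GRCm38 and, in GeneCounts mode, for counting, which keeps reads that touch 1 gene only. The deposited values are whole-number counts without normalization or filter, and no row of the table lacked a gene. The annotation release and the strand setting are not given in the sources used here, so reads of genes that overlap on opposite strands may not be separated.

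Symbols and coordinates came from GENCODE vM21 (GRCm38), which held 45143 of the 45706 identifiers. Genes with an average of 1 count or more over the 10 libraries were tested with genotype as the only factor by the quasi-likelihood test of edgeR 4.0.16 in R 4.3.3 (TMM scaling), and p-values were adjusted over all 25146 genes by the Benjamini-Hochberg method with a threshold of 0.05. Values after ± are standard errors for log2 fold changes and SD for CPM, which uses TMM library sizes. Differences are log2 fold changes of *Ltf* iCre/+ *Arid1a* f/f over *Arid1a* f/f from this fit. Single genes and 6 count ratios (log2 of counts plus 0.5) were compared by a two-sided exact permutation test (252 arrangements), with adjustment over the 6 ratios. Alternatives were RLE size factors, DESeq2 1.42.0, the filterByExpr filter, no filter, a replicate block, 5 counts added before the log ratio, and the omission of uteri. The procedures were tested on simulated counts. Counts of 59296537 to 72702411 per library set 1 count at about 0.0145 CPM, and errors of low genes such as *Foxp3* include counting error.

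The members and the lists of other genes were chosen with earlier results of these data known. All 35 members are named, with values in every uterus for those past the threshold and for *Trac*, *Cd4*, *Cd8a* and *Foxp3*. From each list the genes past the threshold are named, at most the 4 of smallest p, or else the 1 of smallest p, along with *Arid1a*. A few listed genes are counted in their lists and not reported by name here. Promoter windows came from RefSeq (GRCm38.p6). Protein sequences were not used here. The qPCR, staining and flow cytometry measurements of the study were not analysed here.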

Additional observations from a re-analysis of the deposited data

Results flagged for a closer look

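In 3 of the 82 groups of 5 uteri examined (the 35 genes and the 6 ratios in each genotype), 1 uterus stood apart by a gap of more than 0.71 of the whole range of its group, and chance gives about 1 in 20, or 4.1 of 82. Control uterus 3 held the lowest *Cd3g* value, 2.66 CPM, against 4.00 to 4.45 CPM in the other controls. The same uterus held the lowest *Icos* value, 1.10 CPM, against 1.56 to 1.68 CPM in the others. Control uterus 1 held the highest *Crtam* value, 3.23 CPM, against 0.517 to 0.864 CPM in the others. Without control uterus 3, *Cd3g* and *Icos* kept their calls, and without control uterus 1 *Crtam* kept its call.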

How the results depend on the processing

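RLE size factors, the filterByExpr filter and no filter on low counts left the 16 genes that rose as they were. DESeq2 called 4103 of all genes in either direction, against 2438, and 1 of the 35 lower. With single uteri left out, 10 to 17 of the 35 rose, all genes called ranged from 1204 to 2381 (fewest without control uteri 2, 3 and 4), genes called of the 50 listed T cell genes and ligands from 5 to 17 against 16 (fewest without control uteri 1 to 4 and Cre uterus 4), and markers called from 6 to 17 against 13 (fewest without control uteri 2, 3 and 5). Without Cre uteri 3 and 4 together, chosen after seeing the data, 9 of those 50 genes were called, while calls over all genes went from 2438 to 2678. The sources used here do not say whether the replicate numbers pair the samples. Deviations of same-numbered uteri correlated between -0.053 and 0.128, and only the uteri numbered 5 correlated best with each other. Such weak correlations cannot exclude a pairing, for example by litter. With the replicate number as a block, 12 of the 35 rose (*Cd247*, *Cd5*, *Pdcd1*, *Trdc* and *Zap70* did not pass and *Foxp3* did). In either direction, that fit called 9 of the 50 listed genes against 16, and 1704 of all genes against 2438. For the ratios the block cannot pass, because 5 pairs allow no p under 0.0625.

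Differences of the ratios to *Cd3e* ranged without single uteri from -1.91 to -1.16 for *Cd8b1* and from -1.42 to -0.90 for *Cd4*, and both passed without control uterus 1. Those of *Foxp3* ranged from -0.54 to 0.40, and stood at -0.54 with 5 counts added and at -0.64 without Cre uteri 1 and 5. Those of *Ctla4* ranged from -0.39 to 0.27, and stood at 0.50 without Cre uteri 3 and 4. Those of *Pdcd1* ranged from 0.34 to 0.77. The difference of the *Trdc* to *Trac* ratio ranged from 0.73, without Cre uterus 3, to 1.47, and stood at 0.44 without Cre uteri 3 and 4. Signs also turned for 7 genes that did not pass. Without single uteri, *Cd28* ranged from -0.26 to 0.56, *Tigit* from -0.33 to 0.11, *Il2rb* from -0.14 to 0.31, *Gata3* from -0.16 to 0.17 and *Ikzf1* from -0.16 to 0.054. Without Cre uteri 1 and 5, *Cd28* stood at -0.13 and *Lag3* at -0.095, and without Cre uteri 3 and 4, *Il2rb* stood at -0.37, *Il2rg* at -0.037 and *Gata3* at -0.35. The causes were not tested. *Foxp3* and *Ctla4* had few counts in controls, and the counts cannot tell cell numbers from RNA per cell.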

Other observations

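The variable genes of the receptor loci, looked at after the values of the constant genes were seen, give the chains in more detail. In the mouse uterus, gamma-delta T cells are known to use mostly receptors built from *Tcrg-V6* and *Trdv4*, and these cells commonly make IL-17. *Trdv4* stood at 1.50, 1.44, 0.799, 1.51 and 1.44 CPM in the controls and at 3.07, 2.94, 16.4, 8.44 and 7.12 CPM in the Cre uteri. All Cre values were above all controls and those of Cre uteri 3, 4 and 5 were highest. *Trdv4* had a log2 fold change of 2.51 ± 0.46, adjusted p = 0.00786. *Tcrg-V6* stood at 0.504, 0.474, 0.0940, 0.596 and 0.230 CPM in the controls and at 1.27, 1.20, 5.89, 2.61 and 2.07 CPM in the Cre uteri. Its groups did not overlap either, with Cre uterus 3 highest. *Tcrg-V6* had a log2 fold change of 2.77 ± 0.56, adjusted p = 0.0121, and both genes kept their calls in the 10 fits that left out 1 uterus. Of the 4 gamma variable genes tested, *Tcrg-V5* also passed (log2 fold change 2.10 ± 0.59, adjusted p = 0.0455), from under 0.1 CPM in the controls, and did not pass when any 1 of control uteri 1 to 5 or Cre uteri 3 to 5 was left out (adjusted p between 0.0682 and 0.0959). *Tcrg-V4* (log2 fold change 2.31 ± 0.74, adjusted p = 0.0722) and *Tcrg-V1* (log2 fold change 1.86 ± 0.61, adjusted p = 0.0758) did not pass.

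The alpha and beta variable genes were sparse. Summed over 128 alpha variable genes, controls held 11 to 18 counts and Cre uteri 15 to 55, and none of the 2 tested passed. Summed over 34 beta variable genes, controls held 28 to 72 counts and Cre uteri 57 to 131, and none of the 17 tested passed. Most of these genes were too low to be tested. The 6 delta variable genes held 60 to 117 counts in controls and 179 to 1009 in Cre uteri, nearly all from *Trdv4*. Reads that span a variable and a constant gene are not counted, and variable genes of a family share sequence, so these counts miss part of the transcripts.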
